A study of Mus musculus with 7 samples.

Results

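The transcripts described here are those of 10 genes of the injury signal that runs through the kinase DLK and the JNK kinases in neurons with damaged axons, taken by gene symbol from a table of 25655 genes of whole mouse retina. They are the kinase genes Map3k12 (DLK), Map3k13 (LZK), Mapk8, Mapk9 and Mapk10 (the 3 JNK genes), and the injury-induced target genes Jun, Atf3, Sox11, Gadd45a and Ecel1. All 10 had a row, and all 10 were among the 14750 genes with enough counts to be tested. The retinas came from wildtype C57BL/6 mice, and RNA was collected 2 days after crush of the optic nerve, which damages the axons of retinal ganglion cells. One group, of 3 libraries, had received AAV2 for overexpression of Tppp3, a tubulin polymerization-promoting protein, and the other, of 3 libraries, a control AAV2 that the treatment text calls CMV-control-AAV2. The promoter of the Tppp3 vector, the age of the mice and the time of injection are not given in the labels. Every labelled retina was injured, so the comparison reads the effect of the vector on an injured retina and not the effect of the crush.

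DLK and its relative LZK are kinases at the top of a relay that reports axon damage to the cell body. They activate the kinases MKK4 and MKK7, which activate JNK, and JNK phosphorylates c-Jun in the nucleus. c-Jun then raises transcription of its own gene and, with partners such as ATF3, of a set of injury genes. In ganglion cells after optic nerve crush this relay is known to drive both cell death and part of the regrowth response. Much of it acts by phosphorylation, which counts of RNA do not report. In whole retina, fewer cells of a type and less RNA per cell cannot be told apart, and ganglion cells are a small share of the tissue.

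Tppp3 itself, the check of the labels, had 53.7, 36.5 and 41.8 CPM in the Tppp3 AAV2 libraries, against 18.7, 22.2 and 28.0 CPM in the control AAV2 libraries. CPM here are counts scaled to the TMM-adjusted library size. The groups did not overlap, and edgeR's quasi-likelihood test gave a log2 fold change of 0.94 ± 0.20 (SE) with an adjusted p of 0.639 over all genes, whereas DESeq2's Wald test called it (adjusted p = 1.33e-05). Library totals ran from 19961359 to 21843892 counts with Tppp3 AAV2 and from 10961443 to 16218074 in the controls, so depth and group cannot be told apart, although depth is scaled out of the CPM. All 13 ganglion cell markers were detected. Their summed level ranged from 810.1 to 918 CPM with Tppp3 AAV2 and from 855 to 875 CPM in the controls.

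None of the 10 genes differed between the groups at an adjusted p under 0.05. In edgeR's test 0 of 10 were called, where 0.0136% of all genes tested were, and DESeq2's Wald test and limma's voom also called 0. At an unadjusted p under 0.05 the count was 1 of 10, Mapk8, against 7.23% of all genes, of which 3.67% were higher and 3.55% lower with Tppp3 AAV2. The groups did not overlap for 2 of 10, Mapk8 and Mapk10, both higher with Tppp3 AAV2. Among all genes 13.9% did not overlap, 6.92% higher and 7.02% lower. The median log2 fold change of the 10 was 0.0039, with 5 above and 5 below 0, and that of all genes tested was 0.0030. The lowest value was -0.13, for Gadd45a, and the highest 0.16, for Mapk8.

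**Figure D1:**
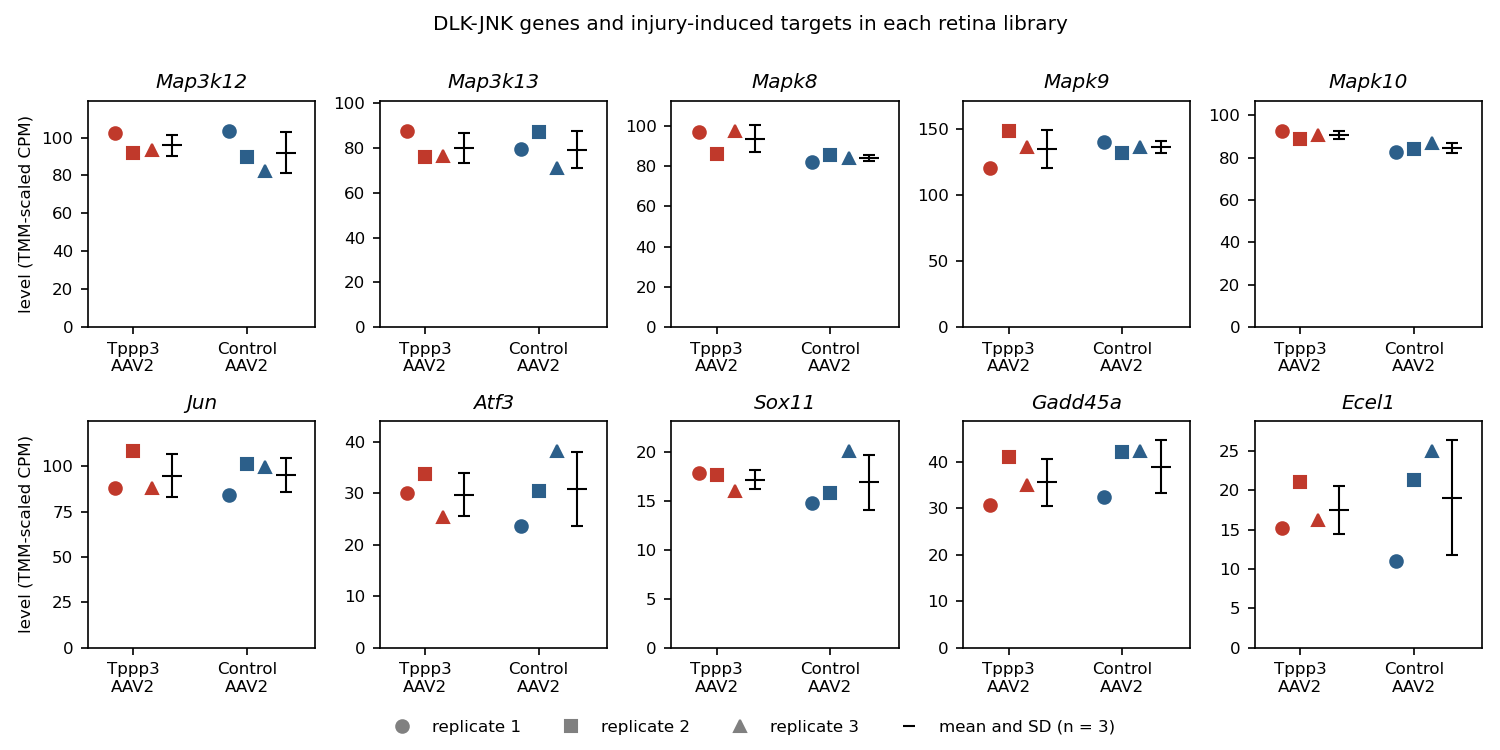
Level of each of the 10 genes (y axis, TMM-scaled CPM, from 0) in the 3 Tppp3 AAV2 libraries (left, red) and the 3 control AAV2 libraries (right, blue), with a symbol per replicate and the mean and SD in black (n = 3 each). Only Mapk8 and Mapk10 show groups that do not overlap, and Ecel1 shows the largest ratio between libraries, 2.28-fold, from 10.96 to 25.03 CPM within the controls.

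At the top of the relay, the DLK gene Map3k12 had 102, 92.0 and 93.3 CPM in the Tppp3 AAV2 libraries, against 104, 89.7 and 82.5 CPM in the control libraries. The groups overlapped throughout, and both ends of the range lay in the controls. Its log2 fold change was 0.060, with a 95% interval of -0.12 to 0.24 (edgeR, adjusted p = 0.913). Map3k13, which encodes LZK, had 87.7, 75.8 and 76.4 CPM with Tppp3 AAV2, against 79.6, 87.2 and 70.9 CPM in the controls. Here too the groups overlapped, with the first Tppp3 library highest and the third control library lowest. Its log2 fold change was 0.012, with an interval of -0.18 to 0.20 (edgeR, adjusted p = 0.988). A difference of more than 1.18-fold upward for Map3k12, or 1.148-fold for Map3k13, thus lay outside the intervals.

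The exons of Map3k12 overlap those of Pcbp2, an RNA-binding protein gene on the opposite strand, over 1573 of 8989 exonic bases in the GENCODE M21 annotation. Pcbp2 ran at 557 to 630 CPM in the Tppp3 libraries and 603 to 665 CPM in the controls. Strand is not marked by the library kit, so reads from the shared stretch cannot be told apart, and how they were counted is not given in the sources used here. Jun overlaps its antisense transcript Junos over 232 of 3189 bases, Gadd45a overlaps an opposite-strand transcript over 337 of 1764, and Map3k13 shares 227 and 54 of 8714 bases with a pair of noncoding RNA genes. The other 6 members overlap no annotated exon of another gene.

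The JNK genes lie below them. Mapk8, which encodes JNK1, had 97.2, 86.1 and 97.8 CPM with Tppp3 AAV2, against 82.3, 85.6 and 84.2 CPM in the controls. Every Tppp3 library lay above every control library, but the second by only a small margin. The log2 fold change was 0.16 ± 0.061 (SE), or 1.11-fold, with an interval of 1.02-fold to 1.22-fold and an unadjusted p of 0.0260 in edgeR's test, but an adjusted p of 0.661. An exact permutation test over the 3 against 3 libraries, two-sided, reached its lower limit in this design, p = 0.1. Mapk8 ranked 575 of 14750 genes by p.

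Mapk10, the gene of JNK3, the JNK found mainly in neurons, had 92.8, 88.8 and 90.7 CPM with Tppp3 AAV2, against 82.7, 84.0 and 86.9 CPM in the controls. It was the steadiest of the 10 genes, with 1.12-fold between its highest and lowest library, and the groups did not overlap. The log2 fold change was 0.10 ± 0.051 (SE), with an interval of -0.0091 to 0.21 (edgeR, adjusted p = 0.726, exact permutation p = 0.1). Mapk9, which encodes JNK2, had 120.3, 149 and 136 CPM with Tppp3 AAV2, against 141, 132 and 137 CPM in the controls. Its lowest and highest values were both in Tppp3 libraries, replicates 1 and 2, and the log2 fold change was -0.012 with an interval of -0.17 to 0.15 (edgeR, adjusted p = 0.985).

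Summed over the 3 JNK genes, the level was 310.3, 324 and 325 CPM with Tppp3 AAV2, against 306, 302 and 308 CPM in the controls. Mapk9 took 38.8% to 46.0% of the sum in the Tppp3 libraries and 43.8% to 46.0% in the controls. The lowest share was in Tppp3 replicate 1, the library in which Mapk9 was lowest and Map3k13 and Mapk10 highest.

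**Figure D2:**
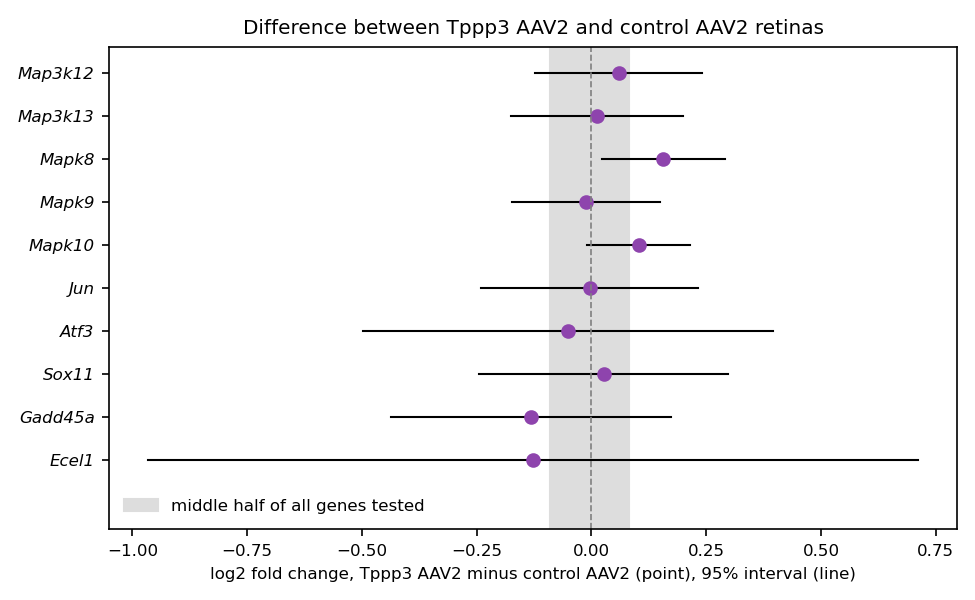
Log2 fold change of each gene, Tppp3 AAV2 minus control AAV2 (x axis; points), with its 95% interval from edgeR's quasi-likelihood fit (lines); the grey band holds the middle 50% of all genes tested. Intervals are narrow for the kinases and wide for Atf3 and Ecel1, and that of Mapk8 alone lies wholly on one side of 0, from 0.022 to 0.29, before any adjustment for the number of genes.

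Jun encodes c-Jun, the AP-1 transcription factor that JNK phosphorylates. It had 88.1, 109 and 87.7 CPM in the Tppp3 AAV2 libraries, against 84.2, 101 and 99.5 CPM in the controls. The groups overlapped, and their means were nearly equal, at 94.8 ± 11.9 CPM with Tppp3 AAV2 and 94.97 ± 9.33 CPM in the controls (SD, n = 3 each). On the log2 scale the difference was -0.0037, with an interval of -0.24 to 0.23 (edgeR, adjusted p = 0.996). A Jun level more than 1.17 times or less than 0.847 times that of the controls thus lay outside the interval.

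Atf3, a stress-induced factor of the ATF/CREB family that is often used to mark injured neurons, had 30.0, 33.7 and 25.4 CPM with Tppp3 AAV2, against 23.7, 30.5 and 38.2 CPM in the controls. Both the lowest and the highest value were in control libraries, replicates 1 and 3, which stood 1.61-fold apart. The log2 fold change was -0.051 with an interval of -0.50 to 0.39 (edgeR, adjusted p = 0.975), so changes up to 1.31-fold upward or down to 0.709 of the control level remained within it. Sox11, a transcription factor of developing neurons that injury switches on again, had 17.8, 17.7 and 16.05 CPM with Tppp3 AAV2, against 14.8, 15.8 and 20.2 CPM in the controls. The Tppp3 values all lay within the control range. Its log2 fold change was 0.026, with an interval of -0.24 to 0.30 (edgeR, adjusted p = 0.981).

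The sequences just before the gene starts of these factors are shown because Jun and ATF proteins are known to bind sites of the AP-1 and CRE type, and some targets of the relay, Jun first, carry such sites. They are RefSeq's sequences on build GRCm38.p6, all on the minus strand and written 5′ to 3′ along the gene, with 250 bases that end at the annotated start. Capitals mark matches to 5 motifs searched on both strands: TGACTCA, TGACGTCA, TGACATCA, TTACCTCA and TTACGTCA. The motifs were chosen with these sequences in view.
Jun, chr4:95052223-95052472: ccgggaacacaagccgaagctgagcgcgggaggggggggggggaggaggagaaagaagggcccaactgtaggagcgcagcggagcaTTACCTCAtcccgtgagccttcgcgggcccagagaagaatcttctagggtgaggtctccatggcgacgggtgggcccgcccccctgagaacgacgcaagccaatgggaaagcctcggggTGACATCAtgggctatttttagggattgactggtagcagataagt
Atf3, chr1:191183334-191183583: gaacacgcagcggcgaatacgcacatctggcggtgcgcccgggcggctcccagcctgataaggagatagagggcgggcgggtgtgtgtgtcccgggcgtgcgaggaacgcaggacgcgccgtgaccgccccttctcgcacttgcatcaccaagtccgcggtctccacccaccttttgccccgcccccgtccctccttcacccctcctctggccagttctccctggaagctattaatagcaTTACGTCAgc
Sox11, chr12:27342719-27342968: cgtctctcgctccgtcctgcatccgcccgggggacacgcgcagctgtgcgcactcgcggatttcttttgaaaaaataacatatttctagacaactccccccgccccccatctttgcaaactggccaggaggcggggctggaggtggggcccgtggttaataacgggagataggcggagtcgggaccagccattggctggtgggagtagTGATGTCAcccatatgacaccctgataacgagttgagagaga

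Jun held 2 matches, TTACCTCA from 164 to 157 bases and TGACATCA from 45 to 38 bases before its start. Sox11 held TGACATCA on the other strand, from 42 to 35 bases before its start, and Atf3 held TTACGTCA from 10 to 3 bases before it. Mapk10 held TGACGTCA from 29 to 22 bases before 1 of its 2 annotated starts. In all, 4 of the 10 genes had a match in at least 1 of their 13 windows, and 9.79% of the 32851 windows in the table held any of the 5 motifs. The former is a count of genes, some with more than 1 window, and the latter a share of windows. As the motifs were chosen with the members' sequences in view, the comparison gives no measure of enrichment. By motif, the share of all windows was 4.46% for TGACTCA, 1.55% for TGACGTCA, 2.93% for TGACATCA, 0.728% for TTACCTCA and 0.447% for TTACGTCA. No match was found in the windows of Gadd45a and Ecel1, which says only that these letters are not there. A match is a description of the sequence and does not show a bound site.

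Gadd45a, a growth-arrest and DNA-damage gene that stress induces, had 30.8, 41.0 and 35.0 CPM in the Tppp3 AAV2 libraries, against 32.4, 42.2 and 42.4 CPM in the controls. The groups overlapped, with the first Tppp3 library lowest and the third control library highest. It differed by -0.13 ± 0.13 (SE) on the log2 scale, with an interval of -0.44 to 0.17 (edgeR, adjusted p = 0.876).

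Ecel1 encodes a membrane metalloprotease, also known as damage-induced neuronal endopeptidase, that is induced in injured neurons. It had 15.2, 21.0 and 16.3 CPM with Tppp3 AAV2, against 10.96, 21.3 and 25.03 CPM in the controls. Control replicate 1 was lowest and control replicate 3 highest, 2.28-fold apart, so that the controls enclosed all Tppp3 libraries. These values rest on 299, 466 and 343 counts with Tppp3 AAV2 and on 124, 346 and 277 counts in the controls. The log2 fold change was -0.13 with an interval of -0.97 to 0.71 (edgeR, adjusted p = 0.961), the widest of the 10. It was -0.40 without control replicate 1 (edgeR, unadjusted p = 0.0244, adjusted p = 0.624) and 0.10 without control replicate 3 (edgeR, adjusted p = 0.981).

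Compared per kilobase of exon, Jun was the most abundant of the 10 transcripts, at 29.7 ± 3.73 CPM per kilobase with Tppp3 AAV2 and 29.8 ± 2.92 in the controls (SD, n = 3 each). Gadd45a had 20.2 ± 2.89 CPM per kilobase with Tppp3 AAV2 and 22.1 ± 3.25 in the controls. Mapk9, at 19.9 ± 2.12 with Tppp3 AAV2 and 20.1 ± 0.635 in the controls, did not differ from it beyond their spread. Atf3 followed at 13.8 ± 1.92 CPM per kilobase with Tppp3 AAV2 and 14.3 ± 3.38 in the controls. The kinase genes other than Mapk9 came after these factors. Map3k12 had 10.7 ± 0.621 CPM per kilobase with Tppp3 AAV2 and 10.2 ± 1.20 in the controls. Map3k13 had 9.18 ± 0.771 with Tppp3 AAV2 and 9.09 ± 0.931 in the controls. The spreads of these genes met in the controls but not with Tppp3 AAV2. In CPM not divided by length, Map3k12 was above Map3k13 in every library, by 1.03-fold (control replicate 2) to 1.30-fold (control replicate 1). The part of reads from the stretch that Map3k12 shares with Pcbp2 in these ratios was not tested. Mapk8, at 8.19 ± 0.578 CPM per kilobase with Tppp3 AAV2 and 7.34 ± 0.143 in the controls, was close to Mapk10, at 8.16 ± 0.178 with Tppp3 AAV2 and 7.60 ± 0.197 in the controls. The lowest levels were those of 2 target genes. Ecel1 had 4.999 ± 0.885 CPM per kilobase with Tppp3 AAV2 and 5.45 ± 2.08 in the controls, and Sox11 had 2.07 ± 0.119 with Tppp3 AAV2 and 2.03 ± 0.344 in the controls. Lengths are those of all annotated exons together, so a gene with long, little-used exons appears lower than its main transcript would.

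Over the 6 libraries, each of the 5 target genes varied more than any of the 5 kinase genes. Between the highest and the lowest library, the kinases differed by 1.12-fold to 1.26-fold, and the targets by 1.29-fold to 2.28-fold. The targets other than Jun had fewer counts, 124 (Ecel1) to 908 (Gadd45a) per library, against 785 (Map3k13) to 3304 (Mapk9) for the kinases. Low counts widen such ranges, and their part was not tested. Jun, with 953 to 2406 counts, varied 1.29-fold, close to the 1.26-fold of Map3k12. On the log2 scale the median range over the 6 libraries was 0.31 for the kinases and 0.46 for the targets, beside 0.33 for all genes tested, and all 5 targets lay above that value. Control replicate 1 was the lowest of the 3 controls for 5 of 5 targets and 2 of 5 kinases, where 35.5% of all genes had it lowest. Tppp3 replicate 2 was the highest of the 3 Tppp3 libraries for 4 of 5 targets and 1 of 5 kinases, against 34.5% of all genes. Both held for 4 of 5 targets, Jun, Atf3, Gadd45a and Ecel1, for 0 of 5 kinases and for 14.8% of all genes. The fifth target, Sox11, was highest among the Tppp3 libraries in replicate 1, and the targets differed in the order of the other Tppp3 libraries. These positions were noticed in the data and are given as a description with no test.

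**Figure D3:**
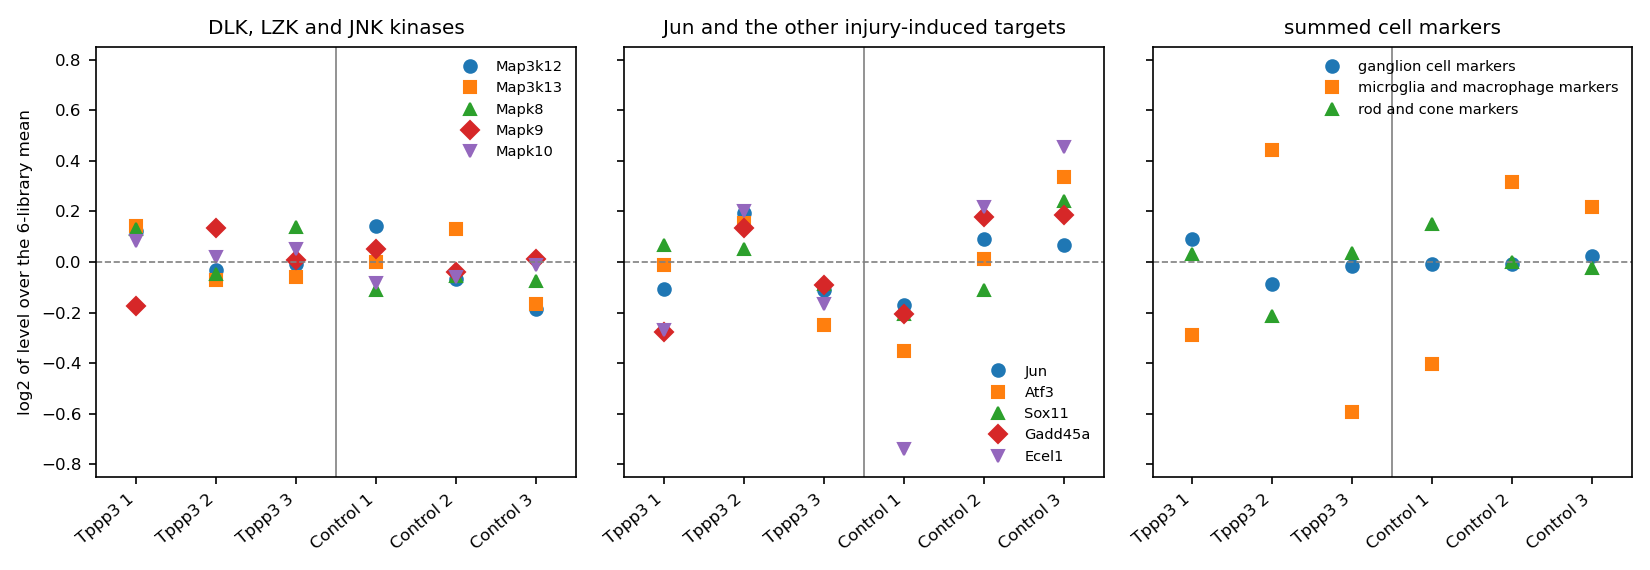
Log2 of the level in each library over the mean of the 6 libraries (y axis) for the 5 kinase genes (left), the 5 target genes (middle) and the summed markers of 3 cell classes (right); Tppp3 AAV2 libraries stand left of the vertical line and control AAV2 libraries right of it. Jun, Atf3, Gadd45a, Ecel1 and the summed microglia and macrophage markers are low in control replicate 1 and high in Tppp3 replicate 2, while the kinases and the ganglion cell markers stay within about 0.19 of the mean.

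Both positions were also held by 7 of 8 microglia and macrophage markers and by 4 of 7 Müller glia and astrocyte markers. Of the 8 microglia and macrophage markers, which mark the resident and incoming phagocytes, 7 were lowest among the controls in replicate 1 and 8 were highest among the Tppp3 libraries in replicate 2, and none was at 0 in every library. Their summed level was 100.04, 166 and 81.1 CPM with Tppp3 AAV2, against 92.5, 152 and 142 CPM in the controls. Of the Müller glia and astrocyte markers, 4 of 7 were lowest in control replicate 1 and 5 of 7 highest in Tppp3 replicate 2. The summed level of that list did not follow them, at 3095, 3543 and 3710.4 CPM with Tppp3 AAV2, against 3392, 2716 and 2832 CPM in the controls. Gfap, the filament gene of reactive glia, chosen after its values were seen, had 74.4, 109 and 32.9 CPM with Tppp3 AAV2, against 39.6, 98.4 and 97.2 CPM in the controls. Rlbp1, Glul and Aqp4 of the same list were instead highest of the controls in replicate 1. Their control levels were 372, 279 and 293 CPM for Rlbp1, 2495, 1845 and 1862 CPM for Glul, and 146, 102 and 129 CPM for Aqp4. Of the ganglion cell markers, both positions were held by 1 of 13, with 5 of 13 lowest in control replicate 1 and 2 of 13 highest in Tppp3 replicate 2. Vascular markers held both in 2 of 5, rod and cone markers in 3 of 9 and tested blood myeloid markers in 0 of 3. Amacrine and horizontal, bipolar, pigment epithelium, and lens and corneal markers held both in 0 tested genes. The summed vascular markers were 114, 139 and 122 CPM with Tppp3 AAV2, against 116, 124 and 142 CPM in the controls. Summed blood myeloid markers were 22.7, 37.9 and 13.2 CPM with Tppp3 AAV2, against 17.9, 16.3 and 33.8 CPM in the controls. The summed rod and cone markers, of photoreceptors, were 52405, 44145 and 52543 CPM with Tppp3 AAV2, against 56783, 51169 and 50348 CPM in the controls, lowest in Tppp3 replicate 2 and highest in control replicate 1. The part of these cell classes in the levels of the target genes was not tested. Control replicates 1 and 3, which lay at opposite ends for Atf3 and Ecel1, had totals of 11325596 and 10961443 counts. The part of depth in the levels of the target genes was not tested. Control replicate 1 and Tppp3 replicate 2 were also the libraries with Y-linked transcripts, at 235 and 224 CPM over 4 genes against at most 2.13 CPM elsewhere, and one was lowest and the other highest within its group for 4 of the 5 targets.

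Pigment epithelium markers, of the layer behind the retina, followed another order. Their summed level was 204, 53.4 and 192 CPM with Tppp3 AAV2, against 184, 42.8 and 46.2 CPM in the controls. It was high in control replicate 1 and in Tppp3 replicates 1 and 3, the 3 libraries in which Jun, Atf3, Gadd45a and Ecel1 were lowest, and its part in those values was not tested.

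Ecel1 was the member of widest range over the libraries, so the genes closest to it were sought among 14084 others with a mean of at least 1 CPM. Likeness was the root mean square distance between log2 CPM values centred over the 6 libraries. The nearest were Igsf6, an immunoglobulin-superfamily receptor gene of myeloid cells, at a distance of 0.038, the predicted gene Gm21988 at 0.079, Ano7 at 0.10, the small GTPase gene Rras at 0.11 and Syk, a kinase of immune receptors, at 0.12. Igsf6 had 1.32, 1.89 and 1.52 CPM with Tppp3 AAV2, against 0.972, 2.03 and 2.26 CPM in the controls. Gm21988 had 6.10, 9.74 and 7.03 CPM with Tppp3 AAV2, against 4.95, 9.16 and 11.93 CPM in the controls. Ano7 had 1.07, 1.40 and 0.997 CPM with Tppp3 AAV2, against 0.707, 1.23 and 1.54 CPM in the controls. Rras had 10.97, 13.35 and 9.78 CPM with Tppp3 AAV2, against 6.81, 14.87 and 14.55 CPM in the controls. Syk had 1.93, 3.25 and 2.33 CPM with Tppp3 AAV2, against 1.41, 2.70 and 3.98 CPM in the controls. All 5 were lowest in control replicate 1, as Ecel1 was. They were chosen for likeness to Ecel1, so this is no separate observation. Low counts in control replicate 1, 11 for Igsf6, 8 for Ano7 and 16 for Syk, limit how closely their levels are known. These are the closest of 14084 genes over only 6 libraries, and whether such likeness exceeds what so many candidates would give was not tested. Among the 10 genes themselves, the nearest to Ecel1 was Atf3 at 0.21, while Atf3 and Sox11 lay at 0.12 from each other, Jun and Gadd45a at 0.095, and Mapk8 and Mapk10 at 0.057.

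Around the 10 genes, 81 further genes of the relay were listed by role, of which 80 had a row and 79 were tested. Of these, 0 were called at an adjusted p under 0.05 in edgeR's test, and 6 were higher and 4 lower at an unadjusted p under 0.05, where 3.67% of all genes were higher and 3.55% lower. These 10 are named with their lists. The list of DLK-JNK kinases, scaffolds and regulators had 15 of 18 tested members above 0, where 7502 of all 14750 genes were. Its median log2 fold change was 0.051, beside 0.0030 over all genes. The list varied less between libraries than all genes did, with a median log2 range of 0.19 against 0.33.

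In that list, the JNK-activating kinases were close to 0, with log2 fold changes of 0.055 for Map2k4 (MKK4) and -0.033 for Map2k7 (MKK7), as were the JNK scaffold genes Mapk8ip1, Mapk8ip2 and Mapk8ip3 at 0.012, 0.034 and 0.024. These 5 lie outside the rule for named genes and were added for their role in the relay. The smallest p values belonged to the kinase gene Tnik, the gene Nmnat2 of the axonal enzyme that makes NAD, the deubiquitinase gene Usp9x, whose product stabilises DLK, and Zdhhc17, whose product attaches palmitate to DLK. Tnik had 122, 126 and 125 CPM with Tppp3 AAV2, against 109, 114 and 117 CPM in the controls. Its groups did not overlap, with a log2 fold change of 0.13 (edgeR, adjusted p = 0.648). Usp9x had 351, 328 and 342 CPM with Tppp3 AAV2, against 317, 312 and 315 CPM in the controls, also without overlap (log2 fold change 0.11, edgeR adjusted p = 0.673). Zdhhc17 stood at 0.12 without overlap (edgeR, adjusted p = 0.682) and Nmnat2 at 0.22 with overlap (edgeR, adjusted p = 0.665).

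The dual-specificity phosphatase family has members that remove phosphate from JNK or its relatives, and the listed genes need not all act on JNK. Of 7 listed genes of the family, 5 were below 0, with a median log2 fold change of -0.036. Without single libraries that median ran from -0.18, without Tppp3 replicate 2, to 0.029, without Tppp3 replicate 3, so its sign rested on 1 library. Dusp1, itself a stress-induced gene, had 27.0, 26.2 and 27.3 CPM with Tppp3 AAV2, against 29.4, 34.2 and 28.3 CPM in the controls. All Tppp3 values were below all control values (log2 fold change -0.19, edgeR adjusted p = 0.687). Dusp4 had a log2 fold change of -0.35, Dusp16 of 0.13 and Dusp10 of -0.11, each with overlapping groups and an edgeR adjusted p of at least 0.823.

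Among 20 other genes of the MAP kinase kinase kinase and MAP kinase families, 13 were above 0 and the median was 0.031. Map3k11, which encodes the mixed-lineage kinase MLK3, had 29.1, 30.3 and 28.4 CPM with Tppp3 AAV2, against 37.0, 31.5 and 34.3 CPM in the controls (log2 fold change -0.23, edgeR adjusted p = 0.648). Map3k5, which encodes ASK1, had 32.6, 32.7 and 34.2 CPM with Tppp3 AAV2, against 29.6, 25.7 and 31.4 CPM in the controls (log2 fold change 0.20, edgeR adjusted p = 0.673). The groups did not overlap for either gene, in opposite directions. Map3k3 and Map3k2 stood at 0.099 and 0.092 with overlapping groups.

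**Figure D4:**
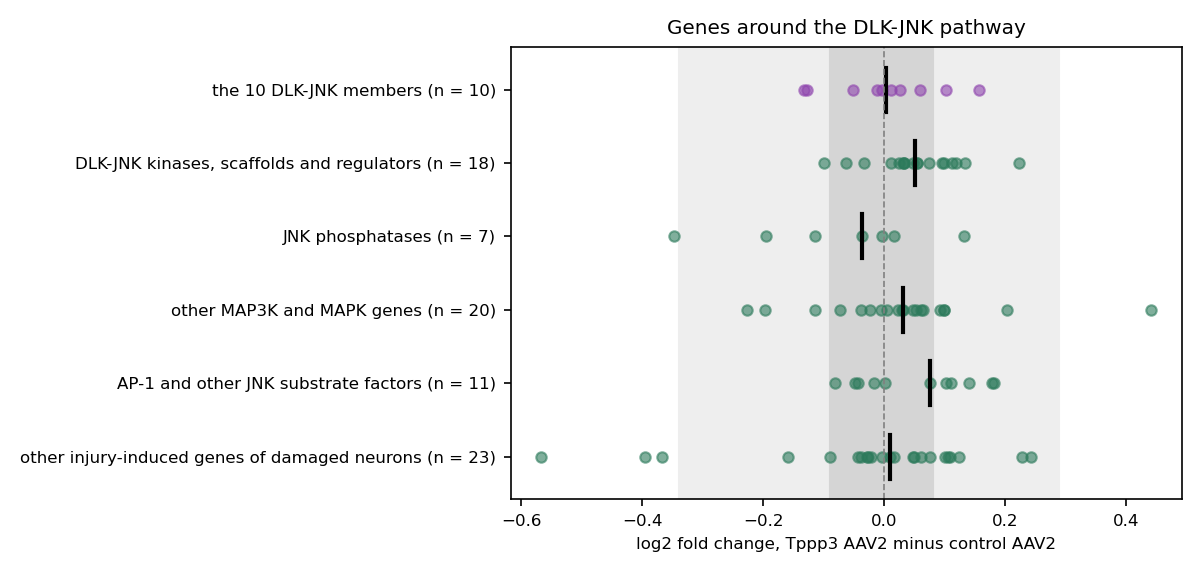
Log2 fold change, Tppp3 AAV2 minus control AAV2 (x axis), of the 10 genes (top row) and of the tested genes of 5 lists around them, with a dot per gene and a black bar at each median; the dark and light grey bands hold the middle 50% and 90% of all genes tested. Most dots lie inside the light band, from -0.34 to 0.29, and the medians lie between -0.036 and 0.075.

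AP-1 partners and other factors that JNK phosphorylates had 7 of 11 members above 0, with a median log2 fold change of 0.075. The sign of that median turned with voom (-0.031) and without control replicate 1 (-0.016). Atf2, a CRE-binding partner of c-Jun, had 76.2, 67.4 and 73.9 CPM with Tppp3 AAV2, against 68.9, 59.2 and 64.3 CPM in the controls, and the groups overlapped (log2 fold change 0.18, edgeR adjusted p = 0.673). Mef2a stood at 0.11, Elk1 at 0.14 and Jund at -0.082 (edgeR, adjusted p = 0.738, 0.751 and 0.865). Elk1 alone of these 4 had groups that did not overlap.

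Other genes known to be induced in damaged neurons were split, with 12 above and 11 below 0 of 23 tested and a median log2 fold change of 0.0095. Tnfrsf12a, the receptor gene of the cytokine TWEAK, had 18.4, 14.7 and 15.3 CPM with Tppp3 AAV2, against 20.8, 19.4 and 22.3 CPM in the controls. Its groups did not overlap (log2 fold change -0.37, edgeR adjusted p = 0.639). Lgals3, the galectin-3 gene, which phagocytes also express, had 5.94, 6.00 and 4.51 CPM with Tppp3 AAV2, against 8.75, 6.21 and 9.58 CPM in the controls (log2 fold change -0.57, edgeR adjusted p = 0.648). The bZIP factor gene Cebpg stood at 0.11 and Klf6, a zinc-finger factor gene, at 0.10, both with overlapping groups.

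The placing seen in 4 of the 5 targets, lowest of the controls in replicate 1 and highest of the Tppp3 libraries in replicate 2, held in 8 of these 23 genes, where 14.8% of all genes had it, and in 4 of the 11 AP-1 and JNK substrate genes. Sprr1a, a regeneration-associated gene named here after its values were seen, had 7.67, 10.4 and 6.46 CPM with Tppp3 AAV2, against 3.89, 9.59 and 9.67 CPM in the controls. Junb, an AP-1 gene also named after its values were seen, had 25.7, 40.4 and 22.7 CPM with Tppp3 AAV2, against 18.6, 32.1 and 31.8 CPM in the controls. For both, control replicate 1 lay below all other libraries and Tppp3 replicate 2 above them, and the log2 fold changes between the groups were 0.077 and 0.10 (edgeR, adjusted p = 0.981 and 0.972).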

How the data were processed

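Poly(A)-selected RNA of whole retina was sequenced from unstranded libraries, per the labels' protocols. The authors deposited raw counts per gene symbol, whole numbers not normalized, per the file headers. The build was GRCm39 (mm39), per the submitters' processing notes, and the sources used here do not give the aligner, counter or annotation. Columns were used where their name matched a sample title, which gave 3 libraries per group. The titles give 4 control and 3 Tppp3 samples, whereas the treatment text counts 4 Tppp3 and 3 control retinas; the titles were followed. The sample titled as control 4 was not analysed here. A further 1 column, named as Tppp3 library 4 and matching no title, was left out. The labels do not say whether the libraries are of separate animals, so p-values measure the spread between these samples.

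Genes were filtered with edgeR's filterByExpr, scaled by TMM and tested over all genes with robust quasi-likelihood fits, two-sided, with Benjamini-Hochberg adjustment at 0.05 (R 4.3.3, edgeR 4.0.16, limma 3.58.1, DESeq2 1.42.0). Standard errors were taken from the fold change and F statistic, and 95% intervals from the t distribution. Log2 CPM used a prior count of 2. The procedure was tested on simulated data. Within-group pairs differed far beyond sampling noise (chi-square per gene 4.04 to 13.8). Exon lengths came from GENCODE M21 (GRCm38) and are not of the authors' build. All 10 genes matched the RefSeq promoter table.

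The 10 genes, the lists and the tests were chosen with earlier results of these data known. Named genes are the 10, Tppp3, the 4 of smallest p in each of 5 pathway lists, and the 5 nearest to the member of widest range. Of the listed symbols, 1 had no row. Alternatives were DESeq2 size factors, DESeq2's Wald test, voom with quality weights, 2 other low-count filters, the replicate number as a block, leave-one-out fits, thinning to equal depth, and sex as a covariate.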

Additional observations from a re-analysis of the deposited data

How the results depend on the processing

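Under all 14 alternatives run, 0 of the 10 genes were called, including the fit with the replicate block (0 called). Same-numbered libraries did not deviate together (correlations -0.029, 0.051 and -0.26). This cannot show whether the numbers pair retinas, which the labels do not say. Over all genes, 2 were called in edgeR's test, 14 with DESeq2's Wald test, 6 with no low-count filter, 1 with the replicate block, 0 with voom, 0 with sex as a covariate, and 0 to 3 without single libraries.

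Mapk8, Mapk10 and Gadd45a kept their sign under all alternatives (0.12 to 0.21, 0.082 to 0.12 and -0.25 to -0.043). The unadjusted p of Mapk8 was over 0.05 with DESeq2 and without any of Tppp3 replicate 1, Tppp3 replicate 3, control replicate 1 or control replicate 3 (edgeR, 0.0897, 0.105, 0.0809 and 0.0552; DESeq2, 0.0501). With single libraries left out, the log2 fold change crossed 0 for Map3k12 (-0.011 to 0.15), Map3k13 (-0.065 to 0.088), Mapk9 (-0.087 to 0.061), Jun (-0.11 to 0.048), Atf3 (-0.21 to 0.13), Sox11 (-0.061 to 0.17), Ecel1 (-0.40 to 0.10), Dusp16 (-0.0046 to 0.21) and Jund (-0.16 to 0.0085). After thinning to equal depth, that of Sox11 was -0.041. The cause of these changes of sign was not tested. The median log2 fold change crossed 0 without single libraries for the 10 genes (-0.041 to 0.067) and the listed phosphatases (-0.18 to 0.029). That of the AP-1 and substrate list (-0.016 to 0.12, with voom -0.031) and of the other injury-induced genes (-0.028 to 0.046) also crossed 0. The median stayed positive for the other 2 pathway lists. It was also below 0 with voom for the 10 genes (-0.010) and the other injury-induced genes (-0.012), and after thinning for the 10 genes (-0.0099). Tppp3 was called with DESeq2's Wald test alone among the 14. The 95% intervals give the sizes of difference that 3 libraries per group leave possible.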
